A study of Homo sapiens with 5 samples.

Results

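The genes described are 10 genes grouped as gastric mucosa differentiation genes, with TFF3 and MUC13 of intestinal type and MUC1 broadly epithelial. They are the mucins MUC1, MUC5AC, MUC6 and MUC13, the trefoil factors TFF1, TFF2 and TFF3, gastrokine 1 (GKN1), progastricsin (PGC) and claudin 18 (CLDN18). They were listed by name, 10 of the 19689 genes of the GENCODE annotation with a protein-coding transcript, and every peak that touched a member gene or the 10 kb to either side of it was taken (GRCh38). Binding was measured by CUT&Tag, in which an antibody directs a transposase to cut and tag the DNA beside its target, in SNU638, an established human gastric cancer cell line grown without any treatment. There was 1 library for each of 3 antibodies, against ACTL6A, against BRG1 and against NRF2, and there were 2 libraries with normal IgG, which has no chromatin target and measures background. With 1 library for each antibody there is no replicate error and no test between lists, so all values below describe these libraries.

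ACTL6A is an actin-like subunit of the SWI/SNF chromatin remodelling complexes, BRG1 is one of their ATPases, and NRF2 is the transcription factor of the oxidative stress response. In the stomach, surface foveolar cells secrete the gel-forming mucin MUC5AC together with TFF1, while mucous neck and deep gland cells secrete MUC6 with TFF2, and goblet cells of the intestine, or of stomach mucosa that has turned intestinal, make TFF3. Trefoil factors are small secreted peptides that help an injured epithelium to close. MUC1 and MUC13 are mucins anchored in the cell membrane.

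In these libraries most of the peaks lay in the windows of 3 mucins, MUC5AC, MUC6 and MUC1. The BRG1 list had 21 peaks over the 10 genes and their flanks, the ACTL6A list had 9, the NRF2 list had 2, the second IgG list had 1 and the first IgG list had 0. Of the 21 BRG1 peaks, 16 lay in these 3 windows, some of them in or at neighbouring genes. At the mucin MUC13, at TFF1 and at GKN1 no list had a peak.

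Counted by gene, the ACTL6A list had a peak at 4 of the 10 genes, beside 66.9% of all protein-coding genes, and the BRG1 list had one at 7 of 10, beside 82.7%. The NRF2 list had a peak at 2 of 10, beside 41.1%. The first IgG list touched 0 of 10, beside 0.0356%, and the second IgG list touched 1 of 10, beside 1.67%. The shares of members were below the genome-wide share for all 3 antibodies, and a share over 10 genes moves by 10 percentage points with each gene. The number of peaks per length of window ran the other way, and a few members held several peaks. The densities were 2.34 ACTL6A, 5.45 BRG1 and 0.519 NRF2 peaks per 100 kb over the windows of the 10 genes. Over those of all protein-coding genes they were 1.12, 2.50 and 0.425. The background windows were not matched in length to those of the members. Whether members hold more peaks than genes of like window length was not tested. Among the 10817 protein-coding genes whose windows were as long as those of the members, between 23.7 and 68.4 kb, the shares with a peak were 65.9% for ACTL6A, 84.1% for BRG1 and 42.6% for NRF2.

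Near the transcription start sites (TSS) the counts were lower. A peak lay within 1 kb of the start of any coding transcript at 2 of the 10 genes for ACTL6A (MUC1 and MUC6), beside 38.5% of all protein-coding genes, at 3 of 10 for BRG1 (MUC1, MUC6 and CLDN18), beside 63.5%, and at 1 of 10 for NRF2 (MUC6), beside 28.1%. The second IgG list also had 1 (MUC6), beside 0.152%. When only the start of each gene's main transcript was used, that is the MANE Select or Ensembl canonical one, the counts were 1 of 10 for ACTL6A, beside 34.6%, 1 of 10 for BRG1, beside 59.6%, and 0 of 10 for NRF2, beside 26.0%. MUC1 was the 1 gene that remained for ACTL6A and for BRG1. The MUC6 calls came from short coding transcripts that start inside the gene.

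**Figure D1:**
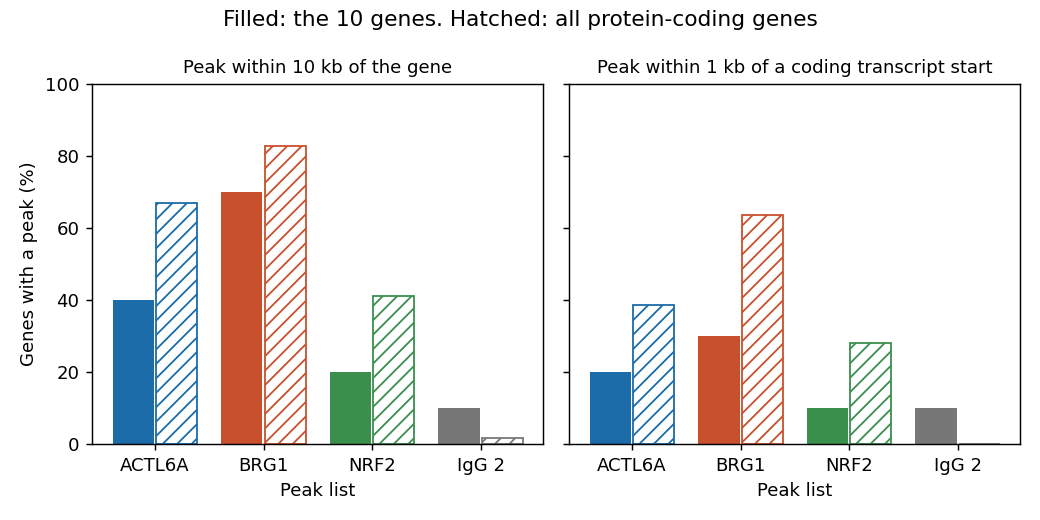
Percent of genes (vertical axis) with a peak within 10 kb of the gene (left) or within 1 kb of a coding transcript start (right), for the 10 genes (filled bars) and all protein-coding genes (hatched bars) in 4 peak lists (horizontal axis; the first IgG list had no peak at the 10 genes). The filled bar is the lower one for each of the 3 antibodies in both panels, and the higher one for the second IgG list, where it stands for MUC6 alone.

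Peaks of ACTL6A and BRG1 overlapped by at least 1 bp at 4 of the 10 genes, MUC5AC, MUC6, PGC and MUC1. The share over all protein-coding genes was 52.5%. These 4 were all the members with an ACTL6A peak. Such overlap was common, at 10334 of the 13163 protein-coding genes with an ACTL6A peak. ACTL6A and NRF2 overlapped at 2 of 10 (MUC6 and PGC), beside 28.8%, and BRG1 and NRF2 at the same 2, beside 37.1%. Of the 8093 protein-coding genes with an NRF2 peak, 5670 had the overlap with ACTL6A and 7312 that with BRG1. At MUC6 and PGC the peaks of the 3 antibodies overlapped at 1 place each. At MUC6 it was inside the coding sequence, where the second IgG list had a peak as well. At PGC it was beside the gene, at the start of its neighbour TFEB. The share of all protein-coding genes with the 3 antibodies together is not given here, so no result is read from this count.

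**Figure D2:**
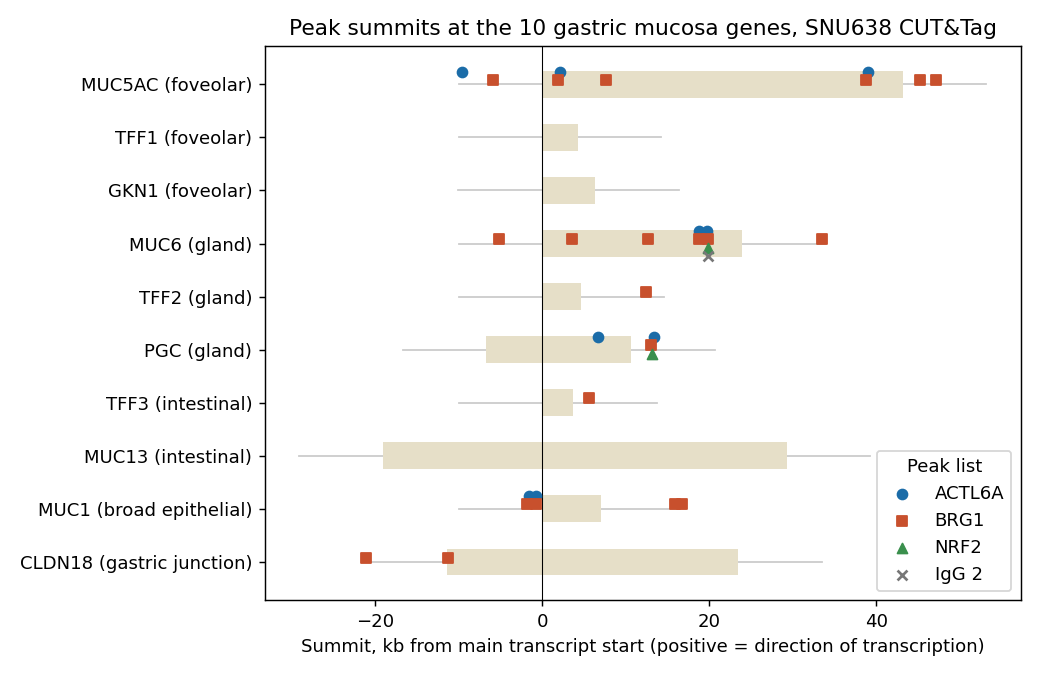
Position of each peak summit relative to the start of the main transcript (horizontal axis, kb, positive in the direction of transcription) for the 10 genes (rows, with the type in brackets). Shaded bars show the gene, thin lines the 10 kb searched to either side, and symbols the peak list. Symbols of 2 lists stack at MUC1 just before the start and of 4 lists at MUC6 about 19.8 kb after it, while the rows of TFF1, GKN1 and MUC13 are empty.

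MUC1, the membrane mucin of most simple epithelia, lies on the minus strand at chr1:155185824-155192916 and carried the highest-ranked BRG1 peak of the 10 genes. That peak, chr1:155193534-155193999, had its summit 759 bp before the main start. It ranked 2487 of 48793 when peaks were ordered by -log10 q (the caller's p-value after correction for multiple testing), which is the upper 5.10% of the list, with a fold enrichment of 9.05 over the caller's local background and a -log10 q of 34.6. The fold and the Poisson p-value together give back the number of fragments under the summit, here 58 against 5.52 expected. An ACTL6A peak, chr1:155193356-155193951, with its summit 685 bp before the start, shared 418 bp with it. Its rank was 4326 of 23917, the upper 18.1%, with 15 fragments against 1.56 expected. The summits lay 74 bp apart.

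Farther from MUC1 a second pair followed. The BRG1 peak chr1:155194372-155194954, 1813 bp before the start at its summit, had 37 fragments against 5.07 expected and ranked 8285. The 144 bp ACTL6A peak inside it had 12 fragments against 1.59 and ranked 7835 in its own list. The nearest annotated start to both was that of the non-coding gene THBS3-AS1, at 268 bp from the BRG1 summit and 502 bp from the ACTL6A summit, so this pair sits between diverging transcripts. The other BRG1 peaks in the MUC1 window lay downstream, in TRIM46, a microtubule-associated neighbour, with 16 fragments against 3.16 and 17 against 3.20. Neither NRF2 nor IgG had a peak at MUC1.

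The sequences under the MUC1 summits are given because this is the only pair of ACTL6A and BRG1 peaks within 1 kb of the main start of a member. The first 2 lines are the 200 bases around each BRG1 summit on the plus strand, chr1:155193574-155193773 and chr1:155194628-155194827, and the third line is the sequence before the first exon on the minus strand, chr1:155192917-155193165, from the RefSeq promoter table (GRCh38.p14). Capitals mark GGAATG, the letters read by TEAD factors, and TATAAA, a box bound by the basal transcription machinery.
MUC1 BRG1 summit 1: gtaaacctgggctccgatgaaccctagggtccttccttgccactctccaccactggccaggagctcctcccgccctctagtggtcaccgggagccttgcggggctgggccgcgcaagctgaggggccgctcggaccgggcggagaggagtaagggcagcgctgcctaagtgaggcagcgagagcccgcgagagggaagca
MUC1 BRG1 summit 2: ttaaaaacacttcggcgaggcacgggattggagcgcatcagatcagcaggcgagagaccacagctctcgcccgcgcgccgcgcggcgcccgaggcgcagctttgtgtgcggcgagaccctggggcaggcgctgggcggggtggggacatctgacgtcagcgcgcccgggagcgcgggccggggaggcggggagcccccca
MUC1 promoter: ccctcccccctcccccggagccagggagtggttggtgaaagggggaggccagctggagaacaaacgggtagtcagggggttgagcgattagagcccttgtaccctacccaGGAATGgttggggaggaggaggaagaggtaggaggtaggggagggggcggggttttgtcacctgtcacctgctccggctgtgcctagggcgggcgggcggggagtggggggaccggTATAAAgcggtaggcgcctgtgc
Their GC contents were 68.0% and 73.0% for the summits, and the promoter letters hold a TATAAA that ends 25 bases before one RefSeq start and 19 before another. TATAAA occurred in 10.7% of the 35116 promoters of that table and GGAATG in 11.9%. None of the letters searched, listed with their shares further on, occurred in the 2 summit windows.

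MUC5AC, the gel-forming mucin of the gastric surface, lies at chr11:1157953-1201138 and had 6 BRG1 peaks and 3 ACTL6A peaks, none within 1 kb of its start. The highest-ranked was the BRG1 peak in intron 1, chr11:1159585-1160074, with its summit 1920 bp after the start, 23 fragments against 2.18 expected and rank 10740, the upper 22.0%. The ACTL6A peak beside it, chr11:1159972-1160222, had 10 fragments against 1.38 and rank 10957, the upper 45.8%, and shared 103 bp with it. Both lie in a stretch of short tandem repeats. The share of 25-base words of the peak that recur in the MUC5AC window was 62.0% for the BRG1 peak and 20.7% for the ACTL6A peak. How far repeats affect read placement in these lists was not tested.

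A second overlap of 60 bp lay near the end of MUC5AC. The BRG1 summit there was in coding exon 39, with 9 fragments against 1.62 expected, and the ACTL6A summit was in intron 40, with 7 against 0.913. Their ranks were 37146 and 16981, both in the lower part of their lists. The remaining BRG1 peaks were 1 upstream at 5.82 kb (10 fragments against 1.69), 1 in intron 10 (10 against 1.74) and 2 downstream (19 against 2.37 and 10 against 2.32). For both downstream peaks and for the pair at exon 39 and intron 40 the nearest coding start was not that of MUC5AC but that of MUC5B, the neighbouring gel-forming mucin of the airways, 17902 to 26360 bp from the summits. The remaining ACTL6A peak lay 9.64 kb upstream with 8 fragments against 0.808, and 49.9% of its 25-base words recurred. Exon 31, the 10371 bp exon that codes for the repetitive mucin domain, held no peak of any list. NRF2 had no peak at MUC5AC and its nearest lay 60.0 kb upstream of the start.

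MUC6, the gel-forming mucin of the gastric glands, lies on the minus strand of the same chromosome at chr11:1012823-1036718. Its leading site was in coding exon 31, the 3009 bp exon of its own repeat domain and its longest, about 19.8 kb after the main start. There the ACTL6A peak, chr11:1016635-1017087, had 19 fragments against 2.22 expected and ranked 3386, the upper 14.2%. The BRG1 peak, chr11:1016647-1017023, had 23 against 3.07 and ranked 13969, the upper 28.6%. The NRF2 peak, chr11:1016740-1017110, had 33 against 6.68 and ranked 2083 of 9045, the upper 23.0%. The second IgG library had a peak over the same bases, chr11:1016706-1017927, with 28 fragments against 5.57 and rank 763 of 1746.

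All 4 summits at this MUC6 site lay within 88 bp of each other, and the IgG peak covered 100% of the NRF2 peak, 84.4% of the BRG1 peak and 84.3% of the ACTL6A peak. Between 36.9% and 54.7% of the 25-base words of the 4 peaks recurred in the MUC6 window. A further pair in the same exon, ACTL6A with 11 fragments against 2.17 and BRG1 with 21 against 3.23, shared 168 bp and also touched the IgG peak. With IgG-shared peaks left out, MUC6 kept no ACTL6A and no NRF2 peak. The BRG1 peaks that remained were in coding exon 25 (11 fragments against 3.11), in intron 1 over the start of a short coding transcript (18 against 3.53), 5.18 kb upstream (10 against 2.46) and 9580 bp downstream, 6 bp from a transcript start of AP2A2, a subunit of the endocytic adaptor AP-2 (6 against 0.840).

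The 2 mucin sites in repeats are printed because the repetition is visible in the letters. Capitals mark bases that belong to a 25-base word found more than once in the gene and its 10 kb flanks. The MUC5AC line is chr11:1159773-1159972, around the intron 1 BRG1 summit, and the MUC6 line is chr11:1016773-1016972, around the exon 31 NRF2 summit, both on the plus strand.
MUC5AC BRG1 summit: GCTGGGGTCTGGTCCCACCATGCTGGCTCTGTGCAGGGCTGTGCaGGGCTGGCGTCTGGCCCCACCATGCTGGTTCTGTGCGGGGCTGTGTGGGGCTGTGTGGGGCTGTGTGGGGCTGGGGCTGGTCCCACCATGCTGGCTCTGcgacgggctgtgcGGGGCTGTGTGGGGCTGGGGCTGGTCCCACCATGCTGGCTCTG
MUC6 NRF2 summit: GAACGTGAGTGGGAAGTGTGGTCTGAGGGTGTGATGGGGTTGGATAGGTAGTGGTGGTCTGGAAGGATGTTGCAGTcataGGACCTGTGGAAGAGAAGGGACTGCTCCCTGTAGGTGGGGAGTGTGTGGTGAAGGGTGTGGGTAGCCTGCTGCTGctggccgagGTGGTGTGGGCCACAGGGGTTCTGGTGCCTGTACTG
In the MUC5AC window 186 of 200 bases were in recurring words, and in the MUC6 window 187 of 200. A NRF2 site would be sought as the core of the antioxidant response element, TGACNNNGC, and the MUC6 window holds no such letters. Across the whole NRF2 list 9.66% of summits held them, so nothing is read from their absence here.

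PGC, the gland gene for pepsinogen C, lies on the minus strand at chr6:41736711-41754109. The 3 antibodies had overlapping peaks in its window, 2385 to 2737 bp beyond its end and 13.1 to 13.4 kb from its main start. The ACTL6A peak, chr6:41733791-41734215, had 14 fragments against 0.786 expected and ranked 2650, the upper 11.1%, which was the highest ACTL6A rank among the 10 genes. The BRG1 peak, chr6:41733881-41734502, had 33 against 2.74 and ranked 5974, the upper 12.2%. The NRF2 peak, chr6:41733997-41734497, had 13 against 2.86 and ranked 7632, in the last part of its list at 84.4%.

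These PGC-window summits lay 75 bp (BRG1), 88 bp (NRF2) and 121 bp (ACTL6A) from a start of TFEB, the transcription factor of lysosome genes, which has the start nearest to all of them. No 25-base word of these peaks recurred, and the IgG lists were empty over them. The other peak in the PGC window was an ACTL6A peak in intron 5 with 6 fragments against 0.599 expected, rank 15832. At the PGC start itself no list had a peak within 1 kb.

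**Figure D3:**
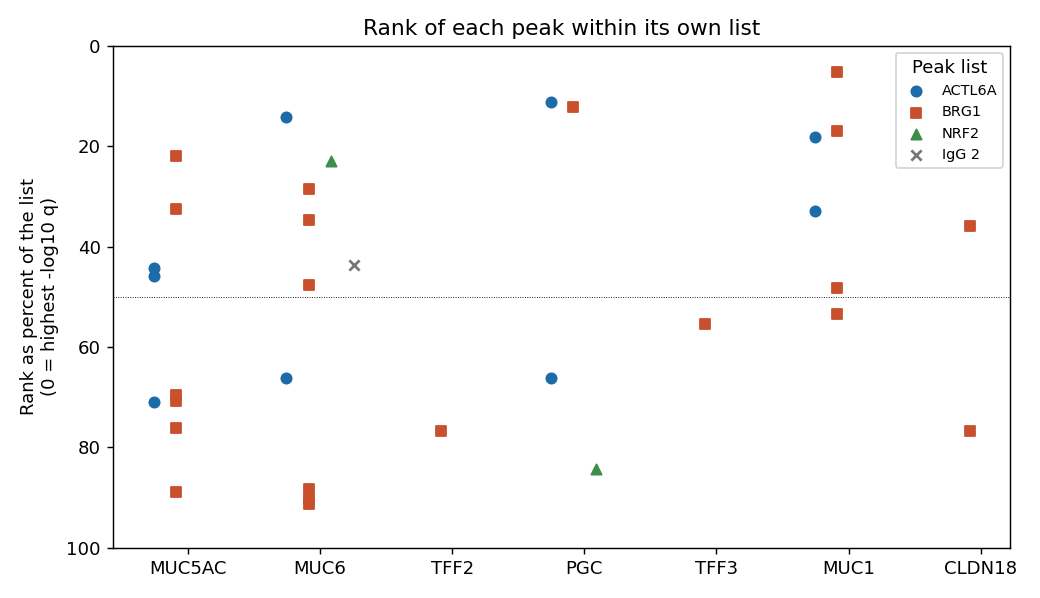
Rank of each peak as a percent of its own list (vertical axis, 0 at the top for the highest -log10 q, dotted line at 50) by gene (horizontal axis) for the 7 genes with a peak. The upper part holds the BRG1 peak before MUC1 at 5.10%, the ACTL6A peak at 11.1% and the BRG1 peak at 12.2% near PGC, while the peaks of TFF2, TFF3 and 1 of the 2 at CLDN18 lie below the line.

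The trefoil genes TFF3, TFF2 and TFF1 lie side by side on chromosome 21, and the 74.9 kb from the TFF3 flank to the TFF1 flank (chr21:42301667-42376535) held 2 BRG1 peaks and no ACTL6A, NRF2 or IgG peak. The BRG1 peak of TFF3, chr21:42309586-42309779, lay 1936 bp beyond the end of the gene and ranked 27100, with 6 fragments where 0.350 were expected. That of TFF2, chr21:42338404-42338727, lay 7775 bp beyond its end with 4 fragments against 0.271 expected and rank 37475, shared with other peaks of the same -log10 q. An expectation of 0.271 was the lowest in the BRG1 list, and 3 fragments were the fewest of any peak in it.

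TFF1, the trefoil factor of the surface cells, had its nearest BRG1 peak at 27.8 kb from its start, which is the TFF2 peak, its nearest ACTL6A peak at 45.8 kb and its nearest NRF2 peak at 130 kb. Of all protein-coding genes, 17.4% had a start farther from a BRG1 peak than TFF1, 23.9% farther from an ACTL6A peak and 29.6% farther from an NRF2 peak. The 2 trefoil summits are printed as the only peaks of the cluster, 200 bases on the plus strand at chr21:42309631-42309830 and chr21:42338482-42338681. They hold no match to the letters searched, so nothing is in capitals.
TFF3 BRG1 summit: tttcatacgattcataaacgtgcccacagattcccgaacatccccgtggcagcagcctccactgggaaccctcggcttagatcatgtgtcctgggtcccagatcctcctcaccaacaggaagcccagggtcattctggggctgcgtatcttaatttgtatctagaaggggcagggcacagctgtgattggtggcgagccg
TFF2 BRG1 summit: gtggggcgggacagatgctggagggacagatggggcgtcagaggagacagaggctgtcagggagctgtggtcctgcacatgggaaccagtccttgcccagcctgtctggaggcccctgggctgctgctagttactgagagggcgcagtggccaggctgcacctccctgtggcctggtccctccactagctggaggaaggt
Their GC contents were 55.5% and 65.0%, beside a median of 60.5% over all BRG1 summits.

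GKN1, a secreted protein of surface mucous cells, lies at chr2:68974573-68980980 and had no peak of any list in its window. The nearest peaks were an ACTL6A peak at 30.5 kb and a BRG1 peak at 30.6 kb before its start. These shared 292 bp, with 6 fragments in each library against 0.182 and 0.271 expected, and the nearest coding start was that of its paralog GKN2, 8984 bp from the BRG1 summit. The nearest NRF2 peak was 462 kb away. Only 9.45% of protein-coding genes had a start farther from an NRF2 peak.

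MUC13, a membrane mucin of the intestine, lies on the minus strand at chr3:124905442-124953819 and also had no peak in its window, which was the longest of the 10 at 68.4 kb. Its nearest BRG1 peak lay 47.0 kb and its nearest NRF2 peak 47.1 kb downstream, nearest to a start of ITGB5, an integrin subunit. The nearest ACTL6A peak lay 32.9 kb upstream with 3 fragments. Across all protein-coding genes the median distance from the main start to a peak was 0.0780 kb for BRG1, 9.99 kb for ACTL6A and 45.2 kb for NRF2, so TFF1, GKN1 and MUC13 lay well beyond the BRG1 median and, for NRF2, MUC13 was close to it.

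CLDN18, a tight junction claudin, has 2 promoters and lies at chr3:137998735-138033655. The upstream start gives the protein of stomach epithelium and the downstream start, 11430 bp farther on, the protein of lung. Both BRG1 peaks of the gene were on the stomach side. One, chr3:137998770-137998963, began 35 bp after the upstream GENCODE start, with its summit 163 bp after that start. It lay wholly in the first exon of the transcript from there (ENST00000343735). The upstream RefSeq start, chr3:137998816, lies inside the peak. This peak had 4 fragments against 0.271 expected and rank 37475, at 76.8% of the list. The other, chr3:137989019-137989202, lay 9669 bp before the upstream GENCODE start at its summit, with 8 fragments against 0.271 and rank 17511, at 35.9%. The downstream start, which is that of the MANE Select transcript, was 11.2 kb from the nearest BRG1 peak. ACTL6A, NRF2 and IgG had no peak in the CLDN18 window, and the nearest ACTL6A peak was 109 kb from the downstream start.

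The CLDN18 sequences are printed because a BRG1 peak lies at the start of the stomach transcript. The first line is the sequence before the first exon of the upstream transcript, chr3:137998566-137998734, from the RefSeq promoter table (GRCh38.p14), with capitals on AGATAA, the letters of GATA factors, and on TGTTTAC, those of FOXA factors, on either strand. The second is the coding part of the BRG1 peak, chr3:137998869-137998963, with the start codon in capitals. The third is the 200 bases around the distal summit, chr3:137988966-137989165, with capitals on a match to the AP-1 letters TGANTCA. All are on the plus strand.
CLDN18 upstream promoter: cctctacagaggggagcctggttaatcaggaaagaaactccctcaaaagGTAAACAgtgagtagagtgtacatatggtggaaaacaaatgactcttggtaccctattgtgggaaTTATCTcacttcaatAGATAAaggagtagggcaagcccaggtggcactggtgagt
CLDN18 coding bases in the peak: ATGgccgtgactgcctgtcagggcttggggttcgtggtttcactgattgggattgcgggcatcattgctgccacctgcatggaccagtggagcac
CLDN18 distal BRG1 summit: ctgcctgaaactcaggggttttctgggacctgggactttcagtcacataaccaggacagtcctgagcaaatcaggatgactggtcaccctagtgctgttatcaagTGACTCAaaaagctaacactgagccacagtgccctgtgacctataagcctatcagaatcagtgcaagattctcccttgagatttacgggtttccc
The AP-1 letters lay 8 bp from the distal summit. AGATAA occurred in 9.17% of all promoters in the table and TGTTTAC in 2.98%, and the 250 bases before the downstream start of CLDN18 held neither.

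Put side by side by type, the 3 foveolar genes (MUC5AC, TFF1 and GKN1) had 3 ACTL6A, 6 BRG1 and 0 NRF2 peaks, all of them at MUC5AC, which is 2.64, 5.27 and 0 peaks per 100 kb of window. The 3 gland genes (MUC6, TFF2 and PGC) had 4, 8 and 2, or 3.78, 7.55 and 1.89 per 100 kb. The 2 intestinal-type genes (TFF3 and MUC13) had 0, 1 and 0, or 0, 1.09 and 0 per 100 kb. MUC1 had 7.38 ACTL6A and 14.8 BRG1 peaks per 100 kb, and CLDN18 had 0 and 3.64. These stand beside the densities over all protein-coding genes given above, whose windows were not matched in length.

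Each density rested on at most 3 loci. The foveolar value is that of MUC5AC alone, where some peaks lie in repeats and the others hold no recurring 25-base word. The gland value holds the IgG-shared exon of MUC6 and the TFEB start, and the intestinal value is 1 peak of 6 fragments. Differences between types were not tested, since the groups hold 2 or 3 genes each. Windows differed in length, from 23.7 to 24.6 kb for the trefoil genes and 27.1 kb for MUC1 to 43.9 kb for MUC6, 63.2 kb for MUC5AC and 68.4 kb for MUC13.

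Over all members the 21 BRG1 peaks had 4 to 58 fragments with a median of 11.0, beside a median of 10 over the whole list, and 10 of the 21 ranked above the middle of the list. The 9 ACTL6A peaks had 6 to 19 fragments with a median of 11.0, beside 6 over the list, and 6 of the 9 ranked above the middle. The nearest coding start was the member's own for 14 of the 21 BRG1 peaks, 6 of the 9 ACTL6A peaks and 1 of the 2 NRF2 peaks. For the rest it belonged to a neighbour.

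Short sequence motifs were searched on both strands in the 200 bases around every summit: TGACNNNGC for the core of the antioxidant response element, TGANTCA for AP-1 (whose matches can overlap the former), AGATAA for GATA factors, TGTTTAC for FOXA factors, TTTATNG for CDX factors and GGAATG for TEAD factors. Of the 21 BRG1 peaks at members, 1 held the antioxidant response element core, a downstream peak of MUC5AC with the letters 28 bp from its summit, and 1 held AP-1, the distal CLDN18 peak above. None held GATA, FOXA, CDX or TEAD letters. In the whole BRG1 list the shares were 11.5% (antioxidant response element core), 13.2% (AP-1), 3.56% (GATA), 1.94% (FOXA), 3.22% (CDX) and 10.7% (TEAD). The 9 ACTL6A and 2 NRF2 peaks at members held none of these letters. In the whole ACTL6A list the shares, in the same order, were 9.88%, 8.04%, 3.47%, 2.48%, 3.41% and 10.9%. For the NRF2 list they were 9.66%, 4.37%, 2.91%, 1.74%, 4.28% and 10.7%.

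Promoter sequences in the RefSeq table were matched for 5 of the 10 genes, GKN1, PGC, MUC13, MUC1 and CLDN18. MUC5AC, MUC6, TFF1, TFF2 and TFF3 are named only. GKN1 held the AP-1 letters TGAGTCA at 189 to 183 and at 50 to 44 bases before its start, and MUC13 held them at 178 to 172, beside 6.57% of all promoters with an AP-1 match. MUC13 also held the TEAD letters GGAATG at 204 to 199 bases before its start, beside 11.9% of all promoters. PGC held TATAAA 30 to 25 bases before its start. None of the 5 held the antioxidant response element core, which 10.9% of promoters did. A match of letters does not show that a factor binds there.

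Related genes of each type were counted from lists of marker genes, to be read beside the shares over all protein-coding genes. At a start these shares were 38.5% (ACTL6A), 63.5% (BRG1) and 28.1% (NRF2). Within 10 kb they were 66.9%, 82.7% and 41.1%. Of 5 other foveolar genes none had a peak of any list within 1 kb of a coding start, although all 5 had an ACTL6A peak and 4 a BRG1 peak within 10 kb. Of 8 other gland genes 1 had an ACTL6A and 2 a BRG1 peak at a start. These were the pepsinogen genes PGA4, PGA3 and PGA5, which are near-identical copies and were named after their values were seen, so reads cannot be assigned to one of them with certainty. Within 10 kb 4 of the 8 had an ACTL6A and 6 a BRG1 peak. Of 11 other intestinal genes 2 had an ACTL6A and 3 a BRG1 peak at a start, with MUC3A, a membrane mucin, in both lists (8 fragments against 0.516 and 6 against 0.756). Within 10 kb 6 of the 11 had an ACTL6A, 9 a BRG1 and 5 an NRF2 peak. The second IgG list had a peak within 10 kb of 3 of the 11, beside 1.67% of all protein-coding genes. How far the NRF2 and IgG peaks at these genes coincide was not tested. No gene of these 3 lists had an NRF2 peak at a start, and none of these other foveolar and gland genes had one within 10 kb. Of 8 simple epithelium genes, 5 had an ACTL6A peak at a start, beside 38.5% of all protein-coding genes, 7 a BRG1 peak, beside 63.5%, and 0 an NRF2 peak, beside 28.1%. With 8 genes and such backgrounds these counts check the labelled epithelial type only weakly. A peak is not a measure of expression, and expression was not analysed here.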

How the data were processed

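CUT&Tag peak lists from SNU638 cells were analysed as deposited, with 1 library per antibody (ACTL6A, BRG1 or NRF2) and 2 IgG libraries. The submitters' processing notes name fastp 0.23.0, BWA, MACS2 and HOMER 4.11, and the lists are on hg38 (GRCh38). Which control library entered the peak calling is not given in the sources used here. In each deposited list the authors gave the score (the −log10 q times 10), the ratio of the summit over its local background (fold enrichment, pseudocount 1), the −log10 p-value and the −log10 q-value. The lists held 23917 (ACTL6A), 48793 (BRG1), 9045 (NRF2), 11 (first IgG) and 1746 (second IgG) peaks. The lists carry no library totals, and none were used here. Fragments at the summit were computed from fold and Poisson p-value and came out whole, within 0.001 on the −log10 p scale, for 98.6% to 100% of peaks in each list.

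Peaks were intersected with GENCODE v44 gene windows (10 kb to either side, overlap of 1 bp), TSS of coding transcripts (1 kb) and each other, and ranked within their own list by −log10 q. Folds were not compared between lists. Sequences came from the reference genome and from the RefSeq promoter table. Python 3.11.15 with NumPy 2.4.6, SciPy 1.17.1 and pysam 0.24.0 was used, and window counts, fragment recovery and motif search were tested on simulated data. All members and every peak over them are described. Other genes were named only where their start was nearest to a peak in or closest to a member's window, or, for foveolar, gland and intestinal marker genes, where they had a start peak of at least 2 antibodies, with exceptions stated. The epithelial list is given as counts. The members, gene types and lists were chosen with earlier results of these data known, and the measure of recurring 25-base words was chosen after the peaks were seen. Alternatives were another q threshold, the highest 5000 peaks, removal of IgG-shared peaks, windows of 2 and 50 kb, other TSS distances and starts, and a 50% overlap.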

Additional observations from a re-analysis of the deposited data

How the results depend on the processing

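With 1 library for each antibody, no value here has a replicate error. The BRG1 peaks of 4 fragments at TFF2 and CLDN18 are near the fewest called in that list, 3. The fewest were also 3 for ACTL6A, but 8 for NRF2 and for the second IgG list. Counts of peaks, and the lack of a peak, are therefore not alike between lists. A gene without a peak is not shown to be unbound. No paired analysis was possible because only IgG had more than 1 library and no comparison of groups was made. Of 99 alternative values for 12 counts, 54 stayed within 1.5 times the reported value and 45 did not. With a −log10 q of at least 5, peaks fell to 3 (ACTL6A), 10 (BRG1) and 1 (NRF2), members with an NRF2 peak to 1, and members with overlap of NRF2 with ACTL6A or BRG1 to 1 each. Among the highest 5000 peaks of each list, ACTL6A kept 3 peaks, BRG1 1 peak at 1 member, which was also its 1 TSS member, and NRF2 1 peak at 1 member, with overlap at 1 (ACTL6A and BRG1), 1 (ACTL6A and NRF2) and 0 (BRG1 and NRF2). The cut at 5000 is stricter for the 48793 BRG1 peaks than for the 23917 ACTL6A or the 9045 NRF2 peaks. Without peaks shared with either IgG list, ACTL6A had 1 TSS member and NRF2 1 member, 1 peak and 0 TSS members, and both NRF2 overlaps were 1. With the first IgG list unused these values were the same, and with the second unused they were as reported, so they ranged from 1 to 2 (ACTL6A TSS members, NRF2 members, NRF2 peaks and NRF2 overlaps) and from 0 to 1 (NRF2 TSS members). The difference is the MUC6 exon. Windows of 2 kb gave 12 BRG1 peaks, 1 NRF2 peak at 1 member and 1 member for each NRF2 overlap. Windows of 50 kb gave 8 ACTL6A members, 24 ACTL6A, 69 BRG1 and 7 NRF2 peaks, 4 NRF2 members and 4 members for each NRF2 overlap. TSS members were 0 (ACTL6A) and 0 (NRF2) within 250 bp, and 1, 1 and 0 with the main start alone for ACTL6A, BRG1 and NRF2. Overlap of 50% of both peaks left 1 member for ACTL6A and NRF2. Apart from the main start, shares over all protein-coding genes are not given at these settings. The counts therefore show only how the values of the members move, not how they stand beside other genes.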
